A study of Mus musculus with 4 samples.

Results

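The immunoglobulin light-chain V genes were followed in the bone marrow of 5TMM mice. Every gene whose symbol in the deposited gene list begins with Igkv or Iglv was taken, which gave 163 of 32285 genes, 160 of the κ locus and 3 of the λ locus. Single-cell RNA-seq was performed on 4 libraries, 2 from vehicle mice (con in the labels) and 2 from PM mice, each treated here as 1 mouse. All 4 were C57BL/KawRij mice that received 5TGM1-luc mouse myeloma cells through the tail vein at 6 weeks of age. After 3 weeks they were given vehicle or PM (purinostat mesylate, an inhibitor of class I and IIb histone deacetylases) at 10 mg/kg, and marrow was collected 24 h later. The tumor is a transplanted cell line, so its cells share an origin and both groups carry it, while the B cells and other plasma cells are those of the host. Red cells were lysed, no cell type was sorted, and transcripts were tagged with unique molecular identifiers (UMIs) from their 3′ end.

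A light chain is made when a developing B cell joins 1 V gene to 1 J segment by RAG-mediated cutting. The joined exon is then spliced to a constant exon, Igkc for κ or Iglc1, Iglc2 or Iglc3 for λ. Pro-B and large pre-B cells assemble the heavy chain first and pair it with the surrogate light chain of Vpreb and Igll1, small pre-B cells rearrange the light chain, and mature B cells and plasma cells transcribe the chain they chose. Because the kit reads the 3′ end of the transcript and the V exon lies at the other end, V UMIs are far fewer than constant-gene UMIs in each class below, and a cell without a V UMI is not a cell without a V gene.

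The 4 libraries held 69828595 to 109447030 UMIs, and 39743 cells passed a minimum of 300 genes and a maximum of 20% mitochondrial counts. Clusters were made without any immunoglobulin gene. Plasma-like cells (227) carried Xbp1 at 4308, Sdc1 at 628 and Prdm1 at 413 CPM (UMIs per 1000000) over non-immunoglobulin genes, and mature B-like cells carried Fcer2a at 583 and no Rag1. Small pre-B and immature B-like cells carried Rag1 at 763 CPM on the same scale, and pro-B and large pre-B-like cells carried Igll1 at 815 and Dntt at 375. The myeloma cells (169) were the plasma-like cells with at least 1 UMI of Rhox5, a homeobox gene. They had Sdc1 at 379 and Xbp1 at 897, but Jchain at 1609 against 131660 in the plasma-like cells and Tnfrsf17 at 1.17 against 223. All but 2 of the 171 cells of the myeloma cluster had Rhox5, whereas 0 of 225 cells of the other plasma-like cluster did, which allows a share of up to 1.33%. The 2 cells of the myeloma cluster without Rhox5, 1 in each PM mouse, are counted among the 227 plasma-like cells by this rule. The 4 mice are given below in the order vehicle replicate 1, vehicle replicate 2, PM replicate 1 and PM replicate 2. Called doublets (barcodes scored as holding more than 1 cell) made up 21.05% of the myeloma cluster and 13.33% of the other plasma-like cluster, and were kept. Without them, 11, 20, 73 and 30 of the 21, 27, 91 and 30 myeloma cells remained. The libraries shared 18 to 39 cell barcodes per pair. P-values measure the spread between these libraries, 2 against 2 or 4 within-mouse differences, so an exact permutation test cannot go below 0.333 or 0.125, and 24 such tests were made.

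The sequences on which the results turn are the gene of the tumor clone with its neighbor, the 3 λ genes and a pair of κ genes found in the early B cell stages. The last 150 coding bases of each germline V exon are shown, from GENCODE vM21 transcripts on GRCm38, all from the minus strand of the assembly and written 5′ to 3′. Igkv10-96 lies at chr6:68631963-68632442 and Igkv10-94 at chr6:68704508-68704978. Capitals mark the bases at which each differs from the other, 14 of the 150.
Igkv10-96: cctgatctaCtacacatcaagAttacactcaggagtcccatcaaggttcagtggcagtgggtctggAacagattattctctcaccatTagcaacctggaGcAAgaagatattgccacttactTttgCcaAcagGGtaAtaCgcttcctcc
Igkv10-94: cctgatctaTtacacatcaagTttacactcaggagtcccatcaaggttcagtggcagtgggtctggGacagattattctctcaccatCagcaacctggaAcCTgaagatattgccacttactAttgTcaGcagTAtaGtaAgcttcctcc
Their coding sequences are 95.4% identical. The λ genes lie at chr16:19085017-19085500 (Iglv1), chr16:19260401-19260859 (Iglv2) and chr16:19241207-19241690 (Iglv3). Capitals mark where Iglv1 and Iglv2 differ from each other, at 5 bases, and where Iglv3 differs from Iglv1, at 58.
Iglv1: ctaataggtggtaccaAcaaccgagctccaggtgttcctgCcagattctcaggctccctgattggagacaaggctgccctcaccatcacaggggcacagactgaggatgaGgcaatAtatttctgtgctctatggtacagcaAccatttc
Iglv2: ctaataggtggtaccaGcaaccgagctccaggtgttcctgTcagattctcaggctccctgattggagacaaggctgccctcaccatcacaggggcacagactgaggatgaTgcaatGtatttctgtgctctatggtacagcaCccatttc
Iglv3: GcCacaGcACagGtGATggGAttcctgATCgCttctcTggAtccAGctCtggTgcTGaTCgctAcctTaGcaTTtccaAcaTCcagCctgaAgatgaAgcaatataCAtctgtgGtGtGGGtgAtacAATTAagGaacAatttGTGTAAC
Igkv19-93 (chr6:68736297-68736780) and Igkv1-35 (chr6:70010949-70011673) are shown with capitals where they differ from the member most like each over the coding sequence, Igkv10-94 (80.1% identity) and Igkv1-133 (83.4%).
Igkv19-93: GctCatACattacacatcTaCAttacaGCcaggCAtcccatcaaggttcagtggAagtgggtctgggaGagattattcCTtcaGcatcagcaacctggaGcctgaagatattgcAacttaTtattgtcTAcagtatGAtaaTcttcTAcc
Igkv1-35: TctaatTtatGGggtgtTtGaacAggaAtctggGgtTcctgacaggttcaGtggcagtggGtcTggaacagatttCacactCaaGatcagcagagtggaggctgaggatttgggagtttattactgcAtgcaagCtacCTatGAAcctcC
Reads that fall on bases shared between members could be split or dropped by the counting. The share of 91-base words that no other member holds was 95.3% for Iglv1, 94.9% for Iglv2, 84.8% for Igkv10-96, 78.5% for Igkv1-110 and 64.4% for Igkv5-43, so the level of each of these genes is uncertain to that extent. Among all members, 4 had under 50% of their 91-base words to themselves, and 3 of those were detected.

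Of the 163 members, 88 were detected and 75 were not. The annotation gives 103 as V genes, of which 77 were detected, and 60 as pseudogenes, of which 11 were detected with 28 UMIs in all. The members held 9469 of 337329266 UMIs. Plasma-like cells held 83.0% of them, myeloma cells 8.43% and the B lineage 4.64%. The V UMIs of plasma-like cells came to 1833, 2259, 1705 and 1589 CPM, from here on UMIs per 1000000 UMIs of all genes in the class. Myeloma cells had 102, 129, 142 and 99.4 CPM, and mature B-like cells 28.5, 33.1, 38.2 and 26.0. The ranges of plasma-like, myeloma and mature B-like cells did not overlap. Neutrophil-like cells, which do not rearrange these genes, gave 0.386, 0.391, 1.28 and 0.430 CPM and measure free RNA and stray cells. A V UMI was found in 94.1 to 100% of plasma-like cells at a median depth of 17501 UMIs, and in 5.70 to 7.82% of mature B-like cells at 2176. The depth of the classes thus differed with these shares, and its part in them was not tested.

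**Figure D1:**
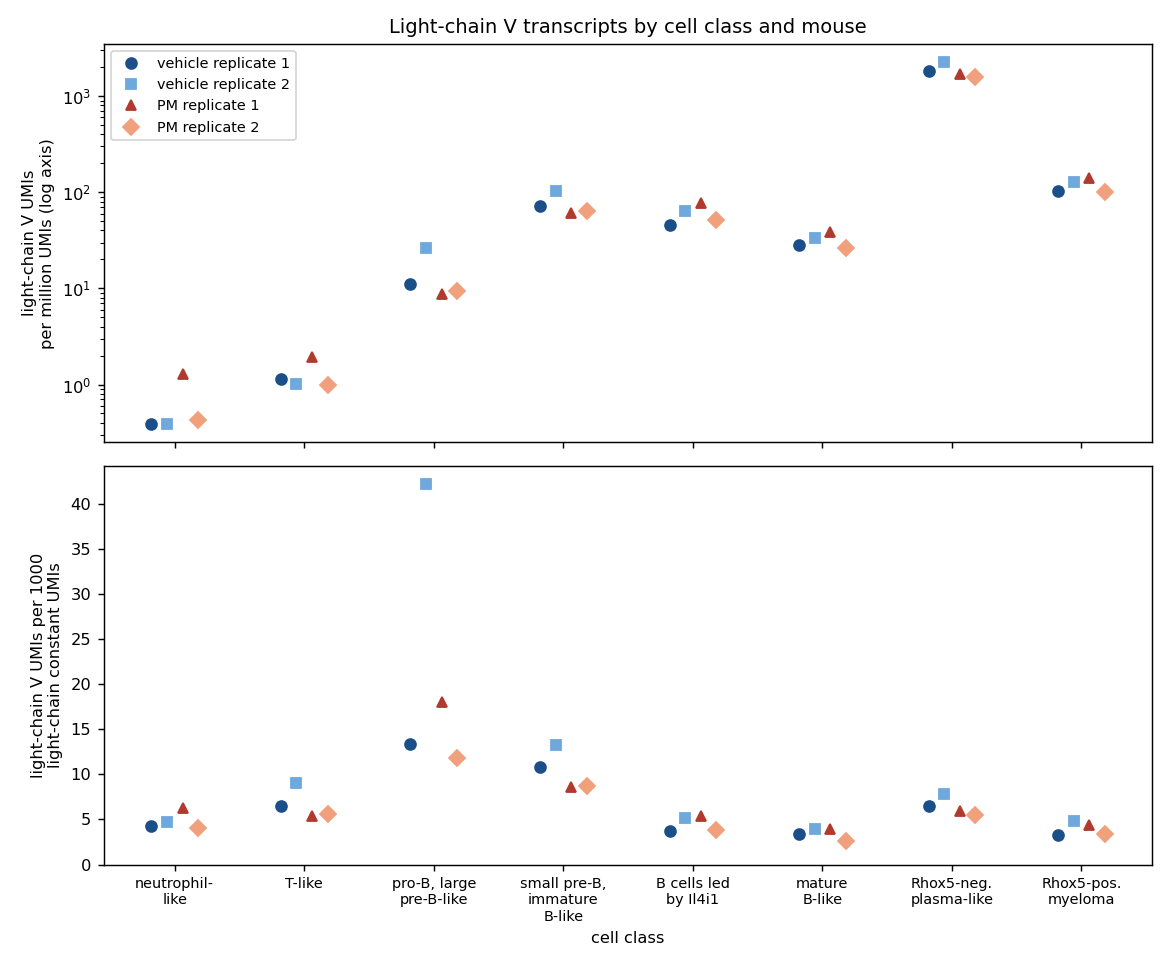
Light-chain V UMIs in CPM (UMIs per 1000000, upper panel, log axis) and per 1000 light-chain constant UMIs (lower panel) in 8 cell classes, 1 point per mouse. Plasma-like cells lie at 1589 to 2259 CPM in the upper panel, while small pre-B and immature B-like cells lie above mature B-like cells in both panels in each mouse.

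Measured against the constant genes the order changed. Small pre-B and immature B-like cells had 10.8, 13.2, 8.54 and 8.75 V UMIs per 1000 constant UMIs. Mature B-like cells had 3.34, 3.89, 3.90 and 2.56, which was lower in 4 of 4 mice (difference 6.90 ± 2.0 SD, n = 4, exact sign-flip permutation p = 0.125, adjusted over the 24 tests 0.273). The small pre-B and immature B-like ratios rest on 7, 93, 11 and 10 V UMIs, those of mature B-like cells on 7, 20, 67 and 24. Of the former, 6, 37, 4 and 8 UMIs were of Igkv19-93 and Igkv1-35, a pair picked from these data and described below. The pair thus held 6 of 7 UMIs in vehicle replicate 1 and 8 of 10 in PM replicate 2, so the ratios of these mice rest mostly on it. The part of this pair in the difference was not tested, and no alternative setting left the pair out. The count of 4 of 4 mice therefore holds only with the pair included. Plasma-like cells had 6.52, 7.83, 5.88 and 5.54, also above mature B-like cells in 4 of 4 mice (difference 3.02 ± 0.812 SD, n = 4, exact permutation p = 0.125, adjusted 0.273). Myeloma cells, with 3.30, 4.77, 4.43 and 3.39, overlapped the range of mature B-like cells. Pro-B and large pre-B-like cells gave 13.3, 42.2, 18 and 11.8, but from 2, 28, 8 and 7 V UMIs. The ratio also varied between V genes within plasma-like cells, as given below.

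The myeloma cells carried 1 V gene. Igkv10-96 held 60, 146, 416 and 106 of their 66, 159, 458 and 115 V UMIs, which is 90.9, 91.8, 90.8 and 92.2%. The 4 shares were thus nearly equal. A leading gene was defined as the single most abundant V gene of a cell with at least 2 UMIs. Igkv10-96 led in 14 of 14, 25 of 25, 76 of 78 and 19 of 19 cells with a leading gene (exact binomial 95% intervals 76.8 to 100%, 86.3 to 100%, 91 to 99.7% and 82.4 to 100%, counting error only). The median cell held 2, 5, 4 and 2 Igkv10-96 UMIs and the highest cell 15, 21, 20 and 17. It was absent from 2, 0, 4 and 4 cells. Apart from Igkv10-96, the myeloma cells had 0, 1, 7 and 2 Igkv UMIs and 6, 12, 35 and 7 Iglv UMIs, so the remainder was mainly λ V transcripts.

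**Figure D2:**
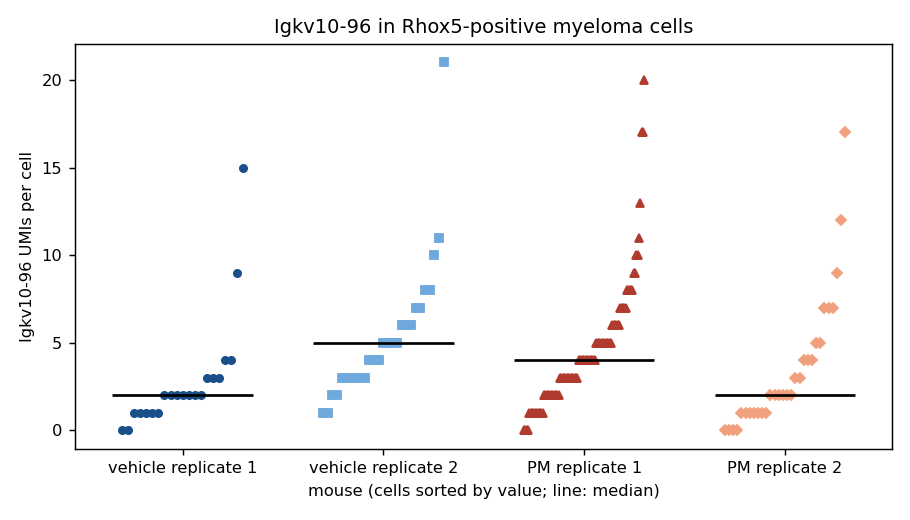
Igkv10-96 UMIs in each Rhox5-positive myeloma cell, sorted by value within each mouse, with a line at the median (2, 5, 4 and 2 UMIs). The 4 distributions overlap, and the highest cell of each mouse holds 15, 21, 20 and 17 UMIs.

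PM did not move Igkv10-96 beyond the spread between mice. It stood at 93.1 and 118 CPM in vehicle mice against 129 and 91.7 with PM, so the groups overlapped (exact permutation p = 1.00, adjusted 1.00). Per 1000 Igkc UMIs it was 3.13 and 4.64 against 4.26 and 3.26 (exact permutation p = 1.00). In edgeR, its log2 fold change was 0.04 ± 0.22 (SE, n = 2 and 2, adjusted p = 0.991). It was the only member tested among 8358 genes in the myeloma cells, where 0.347% of all genes were called at an adjusted p under 0.05 and an absolute log2 fold change over 0.5. Its fold change fell below 0 without PM replicate 1, to -0.33, or without vehicle replicate 1, to -0.14. The share of cells with a leading gene, 66.7 and 92.6% against 85.7 and 63.3%, also overlapped between the groups.

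Rhox5-negative plasma-like cells used many V genes. A leading gene was found in 38, 52, 77 and 46 cells, or 95, 94.6, 95.1 and 90.2%. Between 25 and 37 genes led in each mouse and 54 led in all. The leading gene held 81.8, 87.1, 80.7 and 77.9% of a cell's V UMIs on average, which was lower in both PM mice than in both vehicle mice (exact permutation p = 0.333, the smallest possible, adjusted 0.571). Of the 54 genes, 14 led in 1 mouse, 22 in 2 mice, 12 in 3 and 6 in all 4. Those 6 were Igkv1-110, Igkv10-96, Igkv12-44, Igkv12-46, Igkv6-17 and Iglv1. Iglv1 led the most cells, 25 (6, 6, 6 and 7), and Igkv6-15 came next with 13 (0, 5, 6 and 2). Igkv10-96 led 11 (3, 1, 3 and 4), Igkv4-59 led 9 and Igkv8-21 led 9 (2, 0, 6 and 1). In PM replicate 1 Igkv8-21 and Igkv6-15 led as many cells as Iglv1, whereas Iglv1 led the most in the other 3 mice.

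**Figure D3:**
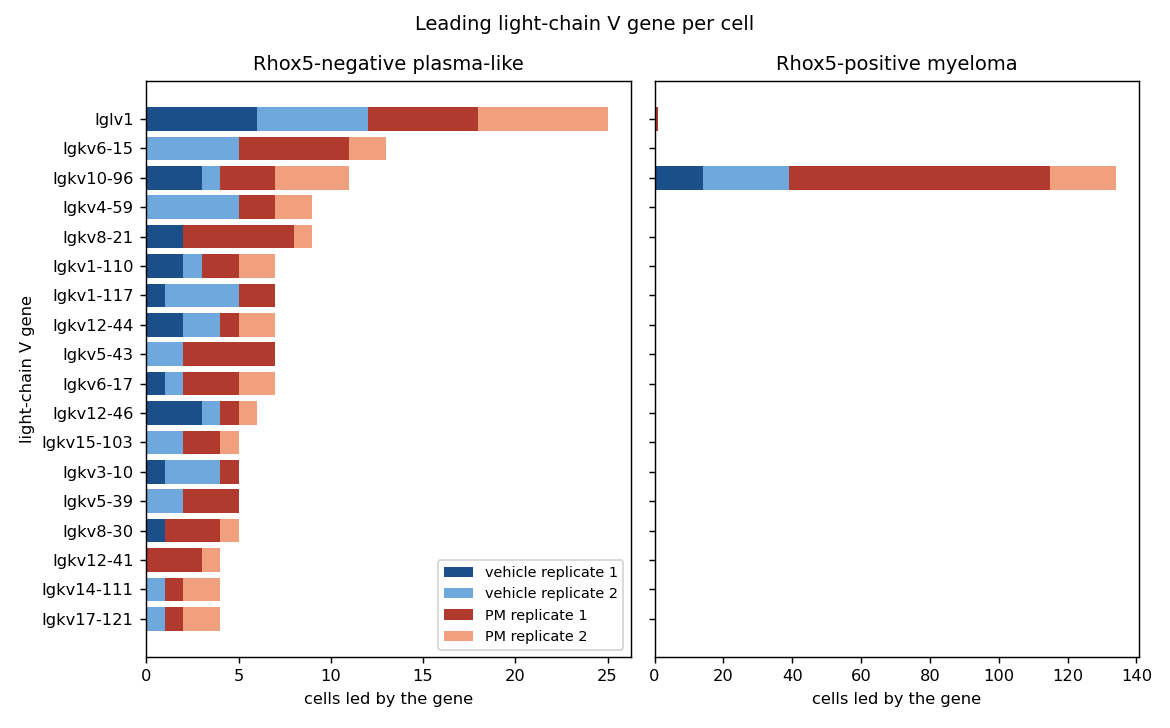
Number of cells led by each light-chain V gene in Rhox5-negative plasma-like cells (left, the 18 genes leading the most cells) and Rhox5-positive myeloma cells (right), stacked by mouse. Bars start at 0 and the horizontal scales differ: 25 plasma-like cells are led by Iglv1 and 134 myeloma cells by Igkv10-96.

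The gene of the tumor clone also led in plasma-like cells without Rhox5. Igkv10-96 led 7.89, 1.92, 3.90 and 8.70% of the plasma-like cells with a leading gene, and the groups overlapped (exact permutation p = 0.667, adjusted 0.762). Of these 11 cells, 10 lay in the other plasma-like cluster, 7 of them with Igha and 3 with Ighg1 or Ighg2c as the leading heavy constant gene. In the 7 cells Igha held 98.7 to 100% of the heavy constant UMIs, whereas Ighg2b led in all 169 myeloma cells and Igha stood there at 30.8 to 52.8 CPM. The remaining cell, in PM replicate 2, lay in the myeloma cluster and had Ighg2b, with 3 Igkv10-96 UMIs among 42822. The Igkv10-96-led plasma-like cells held 2 to 24 UMIs of it and a median of 2.35 per 1000 light-chain constant UMIs. This median lay near the low end of the 15 genes that led at least 5 plasma-like cells, which ran from 2.12 (Igkv5-39, named after its value was seen) to 11.8 for Igkv12-44 and Igkv12-46. J and junction sequences were not analysed here.

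Pairs of plasma-like cells from 1 mouse had the same leading gene in 3.56, 3.70, 2.84 and 3.58% of pairs, and pairs from different mice in 2.84 to 4.35%. On this measure, sharing within a mouse was within the range found between mice. Iglv1, which led 25 cells, gave many of these pairs, and 17 of its cells had Igkc as the main light constant gene. Sharing without Iglv1 was not counted. Heavy-chain V genes were also read in 197 of the plasma-like cells with a leading gene. Of 154 within-mouse pairs with the same light gene, 24 also shared the heavy V gene, and 15 combinations occurred in 2 or more cells, 34 cells in total. Heavy V sharing was not counted for pairs from different mice or pairs with different light genes, so this share has no baseline here. The largest was Igkv8-21 with Ighv1-72, in 4 cells of PM replicate 1. UMIs were less even than cells, since the 5 most abundant members held 50.2% of the V UMIs of the class. Igkv5-43 had 2, 421, 365 and 0 UMIs, and led 0, 2, 5 and 0 cells; it was named after its values were seen. Igkv12-44 had 179, 267, 58 and 124. Levels summed over 40 to 81 plasma-like cells can thus be set by a few cells, and fewer cells of a clone and less RNA per cell cannot be told apart in such sums.

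Of the 35 members tested for PM against vehicle in plasma-like cells, 3 were called by edgeR, where 0.0663% of 6033 genes were called. The 4 called genes were these 3 and Ighm, the μ heavy constant gene. Igkv12-41 had 0, 0, 53 and 83 UMIs, in 4 cells of PM replicate 1 and 2 cells of PM replicate 2, and was at least 42.2-fold higher with PM against a floor of 3 counts over the vehicle group (adjusted p = 0.0324). Igkv8-28 had 26, 39, 0 and 0 UMIs, in 2 cells and 1 cell, and was at least 23.3-fold lower with PM on the same floor (edgeR adjusted p = 0.0324). Each of these is a gene used by a handful of cells in 1 group, and it could pass the count filter only through that group, so the direction of both calls was fixed by the filter. Igkv12-46 had 353, 154, 17 and 12 UMIs, in 3, 1, 1 and 1 cells, and its log2 fold change was -4.29 ± 0.43 (SE, edgeR adjusted p = 0.0324). The Igkv12-46 call was lost without PM replicate 1, and the members called changed with the mouse left out. Such fits leave 1 mouse in a group, so their counts are not given. The median log2 fold change of the 35 members was -0.57, against 0.01 over all genes tested, but leaving out vehicle replicate 2 turned it to 0.24, while it was -0.06 when vehicle replicate 1 was dropped and -1.19 when PM replicate 1 was. The total V level in CPM was lower in both PM mice than in both vehicle mice (1647 ± 82.0 against 2046 ± 301, SD, n = 2 and 2, exact permutation p = 0.333, adjusted 0.571), whereas light-chain constant UMIs overlapped.

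Between classes of the same mice, a gene could pass the count filter through the class where it was high, so the direction of most of these calls was fixed by the filter. Against mature B-like cells, 8 members were tested in plasma-like cells and all 8 were higher, where 48.3% of genes were called and 25.0% were called higher. Iglv1 had 1643 UMIs in plasma-like cells and 9 in mature B-like cells, 151-fold in CPM, and Igkv12-44 had 628 and 6, 86.8-fold. Igkv10-96 was 11.3-fold higher in CPM (edgeR log2 fold change 4.78 ± 0.40, adjusted p = 3.33e-11). The TMM scaling of edgeR gave larger changes than the ratios of CPM, with light-chain constant genes alone at 281200 to 290100 CPM in plasma-like cells.

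Against plasma-like cells, 54.9% of 7831 genes were called in myeloma cells, 28.1% higher and 26.8% lower. Of the 8 members tested, 7 were lower and Igkv10-96 was higher. Igkv12-44, Igkv12-46, Igkv1-110, Igkv14-111 and Igkv6-17 had 628, 536, 188, 100 and 95 UMIs in plasma-like cells and 0 in myeloma cells. They were at least 309, 263, 92.4, 49.1 and 46.7-fold lower in myeloma cells in CPM on a floor of 3 counts over the class. Iglv1 was 93.1-fold and Iglv3 13.7-fold lower. Igkv10-96 stood at 116 CPM in myeloma cells and 25.6 in plasma-like cells, but its edgeR log2 fold change was 0.70 ± 0.23 (adjusted p = 0.0164), and this call was lost without PM replicate 1 (0.205), without vehicle replicate 2 (0.0721), with called doublets left out (0.485) and in DESeq2 (0.0857).

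The λ genes differed from the κ genes in the constant gene they went with. All 185 plasma-like cells led by an Igkv gene had Igkc as its main light constant gene, and the 3 cells led by Iglv2 had Iglc2. Of the 25 cells led by Iglv1, however, 8 had Iglc1 and 17 had Igkc. These 17 cells held 2 to 149 Iglv1 UMIs, with a median of 27, beside a median of 7459 Igkc and 5 Iglc1 UMIs. An Igkv gene with at least 2 UMIs was also present in 14 of the 17, and Iglv3 in 11. By heavy chain, 13 of the 17 had an Ighg gene and 4 had Igha, while of all 213 cells with a leading gene 135 had Igha, 76 an Ighg gene and 2 Ighm.

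That difference by heavy chain was examined after these values had been seen. Plasma-like cells with over 90% of their light constant UMIs on Igkc (κ cells) were divided into those led by Igha (19, 36, 49 and 28 cells) and those led by an Ighg gene (18, 12, 30 and 19 cells). The 3 Iglv genes together stood at 762, 462, 421 and 1107 CPM in the κ IgG cells. In the κ IgA cells they stood at 146, 163, 221 and 92.9. The ranges did not overlap, and the IgG cells were higher in 4 of 4 mice (difference 533 ± 367 CPM (SD), n = 4). The κ IgG sums include the 13 Iglv1-led cells that prompted the split. The direction was thus not independent of that choice, and no test of it is given. Without PM replicate 2 the mean difference was 372 CPM and without PM replicate 1 it was 643. The λ constant genes did not follow, at 2608 ± 736 CPM in the IgG cells and 3250 ± 350 in the IgA cells (SD, n = 4), lower in the IgG cells in 4 of 4 mice (exact permutation p = 0.125, adjusted 0.273). Per 100 Iglc UMIs there were 29.5 Iglv UMIs in κ IgG cells and 4.94 in κ IgA cells, against 0.414 in the 12 cells with over 90% λ constant UMIs and 0.607 in myeloma cells.

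The IgG cells were deeper, with a median of 20527 UMIs against 16283. Thinned to 10000 UMIs per cell, with 17 and 20 shallower cells left out, an Iglv UMI was found in 52 of 62 κ IgG cells (83.9%) and 67 of 112 κ IgA cells (59.8%), against 81.0 and 68.9% before thinning. In PM replicate 1 the thinned shares ran the other way, at 63.6 and 66.7%. Myeloma cells, which are κ and have Ighg2b, had an Iglv UMI in 15 of 165 thinned cells (9.09%) and stood at 9.31, 9.71, 10.8 and 6.05 CPM for Iglv. They were below the κ IgG cells in 4 of 4 mice (difference -679 ± 320 CPM (SD), n = 4). The κ IgG cells had been set apart after Iglv1 was seen in them, so no test of this is given. With PM, the share of plasma-like cells led by an Iglv gene did not differ beyond the spread between mice. It was 21.1 and 11.5% against 7.79 and 17.4% (exact permutation p = 0.667, adjusted 0.762). In edgeR the PM log2 fold change was 0.03 ± 0.47 for Iglv1, -0.65 ± 1.5 for Iglv2 and 0.08 ± 0.25 for Iglv3 (adjusted p = 0.997 each).

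**Figure D4:**
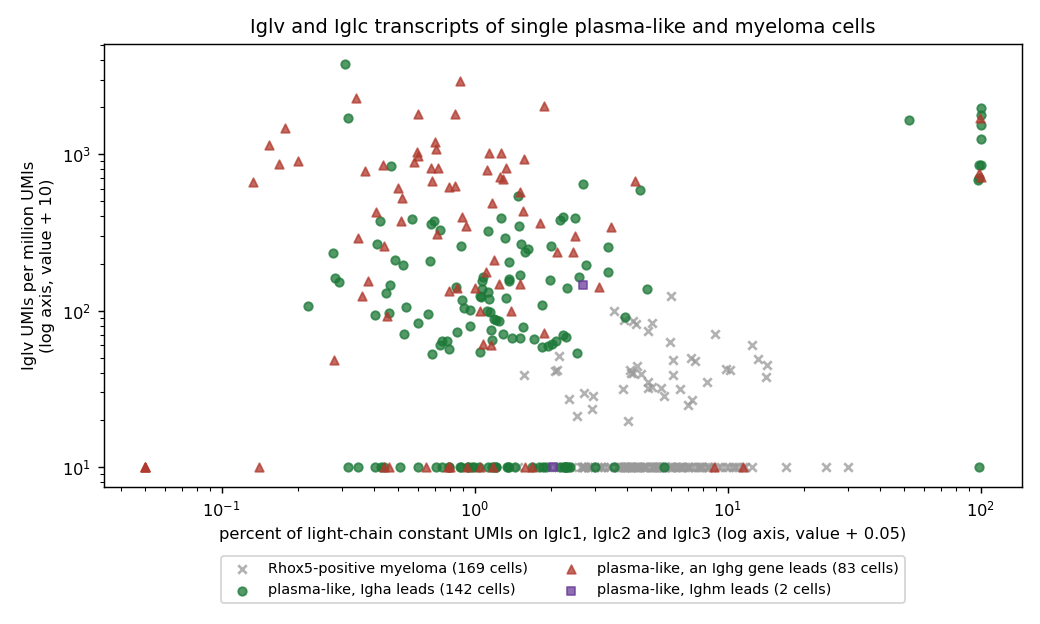
Each plasma-like or myeloma cell by the percent of its light constant UMIs on Iglc1, Iglc2 and Iglc3 (log axis, value + 0.05) and its Iglv CPM (UMIs per 1000000, log axis, value + 10). Cells with λ constant transcripts sit at the right edge, myeloma cells lie low, and many κ cells led by an Ighg gene lie as high as the λ cells.

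In the B lineage, Igkv19-93 stood out in both early classes, and Igkv1-35 in small pre-B and immature B-like cells. Of the pro-B and large pre-B-like V UMIs, 21 were of Igkv19-93 and only 3 of Igkv1-35. Igkv19-93 and Igkv1-35 together held 24 of 45 V UMIs in pro-B and large pre-B-like cells (53.3%, exact 95% interval 37.9 to 68.3%) and 55 of 121 in small pre-B and immature B-like cells (45.5%, 36.4 to 54.8%). They held 16 of 119 in the B cells led by Il4i1, Nfkbid and Ms4a1 (13.4%) and 11 of 118 in mature B-like cells (9.32%, 4.75 to 16.1%). In plasma-like cells they held 0 of 7858, which allows a share of up to 0.0382%, and in myeloma cells 0 of 798, which allows up to 0.376%. The pair was chosen because it led the most cells of the early classes, so these shares are a description and no test of them is given.

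Small pre-B and immature B-like cells had 4, 25, 2 and 4 UMIs of Igkv19-93 and 2, 12, 2 and 4 of Igkv1-35. Mature B-like cells had 0, 3, 7 and 1 of Igkv19-93 and none of Igkv1-35. By mouse the joint share was 85.7, 39.8, 36.4 and 80.0% in the former and 0.0, 15, 10.4 and 4.17% in the latter, without overlap (difference 53.1 ± 32.3 percentage points SD, n = 4, higher in 4 of 4 mice). Igkv19-93 stood at 26.0 CPM over all small pre-B and immature B-like cells and 3.12 over mature B-like cells, 8.33-fold. Igkv1-35 stood at 14.8 CPM and was at least 17.5-fold higher than in mature B-like cells on a floor of 3 counts over the class. Over plasma-like cells, on the same floor, Igkv19-93 was at least 36.9-fold and Igkv1-35 at least 21.1-fold higher. The small pre-B and immature B-like class is made of a pair of subclusters. The larger (380 cells) had 18 UMIs of Igkv19-93 and 17 of Igkv1-35 among 68 V UMIs, and the other (200 cells) had 17 and 3 among 53.

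No member passed the edgeR count filter for mature B-like against small pre-B and immature B-like cells, a comparison in which 29.3% of 6199 genes were called. Without the filter, 2 of 52 members were called (3.85%), Igkv19-93 and Igkv1-35, both lower in mature B-like cells, where 13.9% of 15093 genes were called. The pair had been chosen as leading in the early classes of these cells, so its direction followed from that choice and these calls are no test of it. Of the genes that accompany rearrangement, Rag1 was at 630, 821, 597 and 581 CPM in small pre-B and immature B-like cells and at 0 in all mature B-like, plasma-like and myeloma sums. Irf4, a factor that acts at the κ enhancers, was lower in mature B-like cells by a log2 fold change of -2.29 ± 0.17 (edgeR adjusted p = 4.85e-16), as were Spib at -1.63 ± 0.13 and Tcf3 at -1.87 ± 0.14. Ikzf1 and Pou2af1 were lower too, at -1.14 ± 0.14 and -0.75 ± 0.13. Pou2f2 was higher, at 0.87 ± 0.13 (edgeR adjusted p = 1.56e-07), and Irf8 at 0.13 ± 0.15 and Ikzf3 at -0.06 ± 0.14 were not called. Both classes were clustered on the non-immunoglobulin genes of these same cells, and Rag1 was a marker used to name them. These differences thus partly restate how the classes were made, and their p-values are no independent test.

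**Figure D5:**
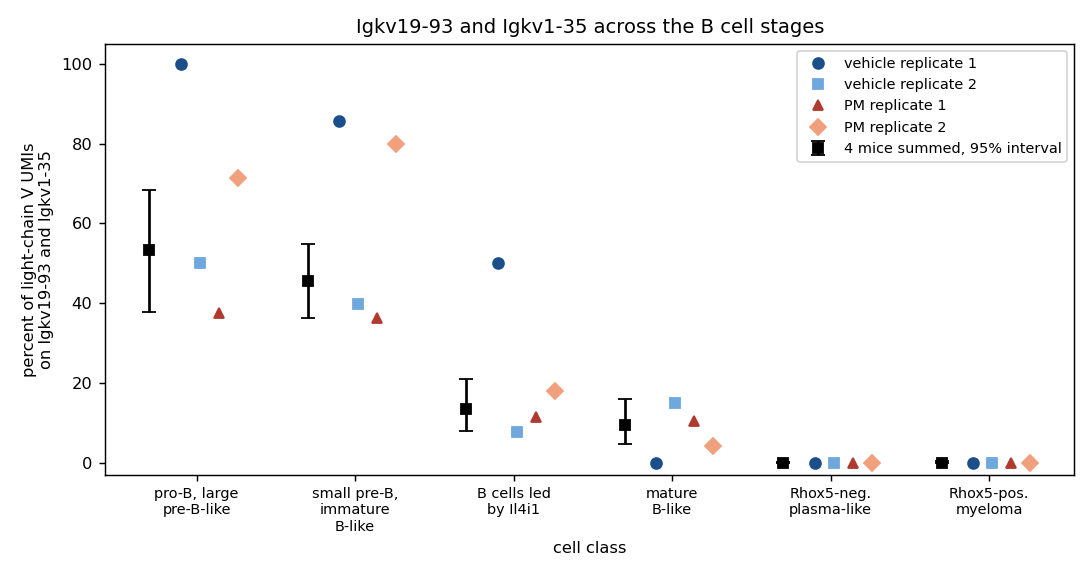
Percent of light-chain V UMIs on Igkv19-93 and Igkv1-35 in 6 cell classes. Colored points are mice, black squares with bars are the 4 mice summed with exact 95% intervals. The summed share falls from 53.3 and 45.5% in the early classes to 9.32% in mature B-like cells and 0 in plasma-like and myeloma cells.

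Position along the κ locus also differed between classes, as a description only. The κ members lie 18.7 to 3166.7 kb from Igkj1, the J segment nearest to them. Counting B lineage cells led with at least 1 UMI, 23.1, 18.2, 30.5 and 28.2% of the κ-led cells used genes at 0 to 800, 800 to 1600, 1600 to 2400 and 2400 to 3300 kb. In plasma-like cells, counted at the leading threshold of 2 UMIs, the shares of 185 κ-led cells were 37.8, 34.1, 11.4 and 16.8%. The classes were thus compared at unlike thresholds, and the cells of all mice were summed. Igkv19-93, at 1986.0 kb, led 60 of the 94 B lineage cells between 1600 and 2400 kb. Without it the B lineage shares were 28.6, 22.6, 13.7 and 35.1%, so the excess at 1600 to 2400 kb was mostly this gene. By family, the single Igkv19 gene held 19.1% of B lineage V UMIs and the 13 Igkv1 genes 21.6%. In plasma-like cells the 12 Igkv12 genes held 16.6%, the 6 Igkv5 genes 13.7% and Igkv19 none. The κ families Igkv7, Igkv11, Igkv13 and Igkv20 had 0 UMIs in both.

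PM against vehicle in the B lineage gave 2 tested members and 0 called by edgeR or DESeq2, where 5.46% of 10648 genes were called. Both had an unadjusted p under 0.05 and were lower with PM, Igkv19-93 by a log2 fold change of -1.24 ± 0.37 (SE, adjusted p = 0.0594) and Igkv1-135 by -2.63 ± 0.75 (adjusted p = 0.0504). Igkv19-93 was called without vehicle replicate 1 (adjusted p = 0.0210) and without the filter on low counts (0.0464), and over all alternatives its adjusted p ran from 0.0210 to 0.623. Igkv1-135 was called with RLE size factors (0.0485), with the stricter cell filter (0.0426) and with the replicate block (0.0478), its adjusted p ran from 0.0426 to 0.504, and it was not tested without vehicle replicate 2. The sums mix stages, and the make-up of the B lineage differed between the groups. B lineage cells numbered 242 and 983 in vehicle mice and 1432 and 737 in PM mice. Of these, 47 and 393 against 77 and 63 were small pre-B and immature B-like cells, counts that overlapped. Mature B-like cells were 107 and 243 against 857 and 386. The part of these numbers in the B lineage values was not tested. Within single stages no member passed the filter, so edgeR called 0 and had none with an unadjusted p under 0.05, as did DESeq2. The share of all genes called was 3.69% in pro-B and large pre-B-like cells, 1.14% in small pre-B and immature B-like cells, 0.458% in the B cells led by Il4i1 and 1.25% in mature B-like cells. Total V UMIs of small pre-B and immature B-like cells were 72.3 and 102 CPM in vehicle mice and 60.2 and 63.1 in PM mice, without overlap (exact permutation p = 0.333, adjusted 0.571), but from 7, 93, 11 and 10 UMIs.

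A list of 28 other genes was tested beside the members. Most are genes of light-chain expression (constant genes, recombination genes, surrogate light chain, κ enhancer factors, secretion genes). The list also holds the heavy constant genes Ighg2b, Igha, Ighm and Ighd, and Rhox5. In the B lineage 27 were tested, 7 were lower with PM and 1 was higher, where 5.46% of all genes were called. The recombinase genes Rag1 and Rag2 fell by 1.97 ± 0.24 and 2.33 ± 0.17 on the log2 scale (SE, edgeR adjusted p = 0.00156 and 2.22e-06). Dntt, which adds bases at the junctions, fell by 1.80 ± 0.16 (adjusted p = 9.70e-06). Igkc rose by 0.58 ± 0.15 (edgeR adjusted p = 0.0327). These B lineage sums mix the stages whose cell numbers are given above, and the part of those numbers was not tested. Within pro-B and large pre-B-like cells 4 of 25 tested were higher and 4 lower. The higher ones were led by the λ constant genes Iglc2 at 6.24 ± 0.67 and Iglc3 at 3.24 ± 0.49 (edgeR adjusted p = 2.45e-05 and 8.60e-04). Iglc2 stood there at 0 and 0.942 CPM in vehicle mice and 54.2 and 90.8 in PM mice, and Iglc3 at 0 and 7.53 against 72.6 and 44.7. At these vehicle levels both could pass the count filter only through the PM mice, so the direction of both calls was fixed by the filter. Among the lower ones were Rag2 at -1.95 ± 0.29 and Dntt at -1.66 ± 0.26. Rag1 was not called there, at -1.13 ± 0.35 (edgeR adjusted p = 0.09999). There Dntt was 794 and 563 CPM in vehicle mice and 257 and 142 in PM mice. Within small pre-B and immature B-like cells 2 of 21 were higher and 1 lower, Iglc3 at -2.22 ± 0.25 (adjusted p = 9.79e-05), and Rag1 did not pass the test. Among B cells led by Il4i1, 1 of 21 was higher and 1 lower. None of 21 passed in mature B-like cells or of 18 in myeloma cells. In plasma-like cells 1 of 19 did, Ighm, at 4.78 ± 0.40 (edgeR adjusted p = 0.0224). Ighm stood there at 136.5 and 128.1 CPM in vehicle mice and 2517 and 5069 in PM mice. It was the leading heavy constant gene in 2 of the 213 cells with a leading V gene, so a few cells could set this call.

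Between classes, 4 of 24 list genes were higher and 11 lower in mature B-like cells than in small pre-B and immature B-like cells. Over all genes 29.3% were called there. The shares were 48.3% for plasma-like against mature B-like cells (25.0% higher) and 54.9% for myeloma against plasma-like cells (28.1% higher, 26.8% lower). In plasma-like cells against mature B-like cells 12 of 21 were higher and 5 lower, with Igkc at 6.86 ± 0.14 on the log2 scale (edgeR adjusted p = 4.01e-25). Spib stood at 0 CPM in all plasma-like sums and at 244, 279.5, 207.4 and 203.7 in mature B-like cells, so the filter fixed its direction. Clusters were made from the non-immunoglobulin genes of these cells, and markers including Xbp1, Mzb1, Jchain, Irf4, Pou2af1, Spib and Vpreb3 named them. Calls of such genes between classes partly restate how the classes were made and are no independent test. In myeloma against plasma-like cells 14 of 20 were lower and 1 higher, Rhox5, which the class rule used. Igkc was lower in myeloma cells by -4.61 ± 0.09, Jchain by -8.09 ± 1.42 and Xbp1 by -2.31 ± 0.12 (edgeR adjusted p = 1.68e-16, 0.0186 and 6.00e-11). Igkc stood at 29700, 25450, 30140 and 28090 CPM in myeloma cells and at 260900, 253000, 286800 and 259700 in plasma-like cells, so the clone held less light-chain RNA of both the V and the constant exon, in CPM, than the host plasma-like cells.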

How the data were processed

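The authors aligned 10x Genomics 3′ libraries (V3 kit) with Cell Ranger and deposited filtered UMI counts per gene and cell. Their methods name a GRCm38 reference, and the submitters' processing notes list GRCm39 with Cell Ranger and STAR. Coordinates and sequences here come from GENCODE vM21 on GRCm38, in which all 163 members matched by gene ID.

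The cell filter asked for 300 or more genes and no more than 20% mitochondrial UMIs. Cells were clustered without immunoglobulin genes in scanpy 1.11.5 (2500 variable genes, 30 components, 15 neighbors, Leiden resolution 1), and B clusters were clustered again (2000 genes, 20 components, resolution 0.8). Classes were named from a marker list after clusters had been seen. Doublets were ranked by the Scrublet score in scanpy at 0.8% per 1000 cells, since the automatic threshold called 2 cells in 1 library. They were kept in the main results and left out as an alternative.

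UMI counts were summed per mouse and class with at least 10 cells per mouse, and tested in edgeR 4.0.16 (quasi-likelihood, TMM, Benjamini-Hochberg over all genes tested, called at an adjusted p under 0.05 and an absolute log2 fold change over 0.5), with the mouse as a block between classes. SEs were derived from the F statistic. DESeq2 1.42.0 was an alternative. Tests on simulated counts recovered 12% and 87% of genes changed by 1 and 2 on the log2 scale for PM in plasma-like cells. The simulation gave every gene the same dispersion and changed only genes above a minimum mean count. These shares need not apply to V genes, whose SEs there ran from 0.25 (Iglv3) to 3.23 (Igkv5-43). Named genes were the 5 leading most cells in each class, the leading gene of most plasma-like cells per mouse, Igkv10-96, the Iglv genes and up to 5 called genes per direction. Igkv19-93 and Igkv1-35 fall under that rule. Members, lists and tests were chosen with earlier results of these data known. Intervals and floors cover counting error only. The labels do not say whether same-numbered mice were handled together, so the numbers were not treated as pairs. Deviations of same-numbered mice correlated at -0.07 to 0.09, which cannot decide this with so few mice.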

Additional observations from a re-analysis of the deposited data

Results flagged for a closer look

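Outside the B, plasma-like and myeloma classes, 2 cells held many light-chain V UMIs, above the level of the neutrophil-like cells. In PM replicate 1, a cell of a cluster led by Elane, Mpo and Ctsg had 79 V UMIs, 75 of them of Igkv8-21, among 51132 UMIs. In PM replicate 2, a cell of a cluster led by Gria3 and Mpo had 42 V UMIs, 25 of them of Igkv4-50, among 66327 UMIs. Called doublets made up 8.91% and 17.92% of these clusters, and the part of doublets in these 2 cells was not tested.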

How the results depend on the processing

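Of 500 alternatives, 13 changed a sign, not counting the median log2 fold change of the members given below. Of the others, 6 lost and 5 gained a call of a named gene, and 23 moved a count or level beyond its limit. Another, chosen after seeing the data, left out Igkv19-93 and took the B lineage share at 1600 to 2400 kb from 30.5 to 13.7%. Without the filter on low counts, members called were 1 of 67 for PM in the B lineage (5.37% of all genes called), 11 of 69 for PM in plasma-like cells (0.333%), 2 of 52 for mature B-like against small pre-B and immature B-like cells (13.9%), 55 of 78 for plasma-like against mature B-like cells (29.2%) and 55 of 69 for myeloma against plasma-like cells (35.3%). RLE size factors and the stricter cell filter (500 genes, 10% mitochondrial) each gave 1 of 2 in the B lineage, Igkv1-135 (5.63 and 5.13% of all genes called). With the replicate block, 1 of 2 members was called in the B lineage, also Igkv1-135 (8.15% of all genes). In plasma-like cells it was 6 of 35 (0.149%), and no other count moved. Whether same-numbered mice were handled together is not given by the labels. With called doublets left out, 6 of 6 members tested were called for plasma-like against mature B-like cells (48.7% of all genes). For myeloma against plasma-like cells it was 6 of 7 (55.2%). Igkv10-96 and Igkv6-17 were not among them in either comparison. Leaving a mouse out of a PM comparison leaves 1 mouse in a group, so only the main counts are given. Those were 0 of 2 in the B lineage and 3 of 35 in plasma-like cells. In the B lineage the median log2 fold change of the members tested then ran from -2.32 to -1.09. For mature B-like against small pre-B and immature B-like cells, 1 of 1 was called without PM replicate 1 (27.5% of all genes). There 0 were tested without any other mouse. For plasma-like against mature B-like cells all 8 to 14 tested were called (42.3 to 43.1%). For myeloma against plasma-like cells it was 7 to 14 of 8 to 14 tested (47.5 to 50.7%).

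The mean share of plasma-like cells with a leading gene was 82.5% at 5 UMIs, 90.6% when it held a majority of V UMIs and 98.3% with the stricter cell filter. Same-gene pairs fell to 2.85% with doublets left out. In myeloma cells the share with a leading gene was 92.1% at 1 UMI and 32.2% at 5 UMIs, where the leading gene held 95.2% of V UMIs.

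PM differences that changed sign, none of which had passed a test, were the median log2 fold change of the members in plasma-like cells (0.24 without vehicle replicate 2), the myeloma Igkv10-96 log2 fold change (-0.14 without vehicle replicate 1, -0.33 without PM replicate 1) and, in percentage points, plasma-like cells with a leading gene (1.16 with the stricter filter, 0.289 without PM replicate 2), led by Iglv (1.05 without vehicle replicate 1, 1.10 without PM replicate 1), led by Igkv10-96 (-0.675 at 5 UMIs, -1.60 without vehicle replicate 2, -1.01 without PM replicate 2) and same-gene pairs (0.0596 with doublets left out). In myeloma cells the share with a leading gene became 2.98 at 5 UMIs, 7.86 without vehicle replicate 2 and 6.09 without PM replicate 2. With each mouse left out in turn, these differences ran up to 0.283 for the Igkv10-96 fold change, down to -4.58 and -8.50 and up to 4.37 for the 3 plasma-like shares, and down to -18.1 in myeloma cells. The causes were not tested. The IgG and IgA difference in Iglv, the Igkv19-93 and Igkv1-35 share and the small pre-B ratio to constant UMIs were also varied. The alternatives were chosen after seeing the data, and each result kept its direction. For the share this follows from the choice of the pair. For the Iglv difference it is not independent of how the split was chosen. No alternative left the pair out of the small pre-B ratio, so whether that direction holds without the pair was not tested. B lineage values rest on 439 V UMIs, which limits every stage.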
